A study of Mus musculus with 34 samples.

Results

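The MCM genes described here are Mcm2, Mcm3, Mcm4, Mcm5, Mcm6 and Mcm7, which encode the subunits of the replicative helicase, and Mcm10, which encodes a separate replication factor. These 7 genes were taken by symbol from the 29876 gene entries of the count table, as a named gene family whose rule uses no measured value, and all 7 passed the filter on low counts in every fit. RNA-seq was carried out on 28 libraries of mouse cells in 9 groups, made up of 3 genotypes at 3 stages. The stages were embryonic stem cells (ESCs) kept in serum and LIF, neural progenitor cells (NPCs) harvested on day 5 of differentiation, and immature dopaminergic neurons harvested on day 16, with an epiblast stem cell step before the differentiation. Libraries numbered 3 control, 3 deletion and 3 duplication-deletion in ESCs, 5, 3 and 3 in NPCs, and 4, 2 and 2 in neurons.

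Control cells had the genotype 129Sv +/+, deletion cells 129Sv df/+ and duplication-deletion cells 129Sv df/dp, and the labels of all 28 libraries give C57BL/6N as the background strain. The deletion is a heterozygous loss of the mouse 7qF3 region, which corresponds to human 16p11.2. Duplication-deletion cells carry the duplication on one chromosome and the deletion on the other. No MCM gene lies on chromosome 7: in mm9 coordinates of the authors' deposited table Mcm2 spans chr6:88833468-88848774, Mcm3 chr1:20793095-20810294, Mcm4 chr16:15623990-15637493, Mcm5 chr8:77633427-77652338, Mcm6 chr1:130228168-130256233, Mcm7 chr5:138605817-138613090 and Mcm10 chr2:4911770-4933837. The labels do not say how many clones a genotype had or whether replicates were separate cultures, and p-values therefore speak for the scatter among these libraries, which may be technical.

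Mcm2 to Mcm7 form a ring that is loaded onto DNA as a double hexamer before S phase, a step called licensing. The origin recognition complex, Cdc6 and Cdt1 load it, geminin (Gmnn) blocks Cdt1, and the Dbf4-Cdc7 kinase, Cdc45 and the GINS proteins turn the loaded ring into an active helicase that unwinds the fork. Mcm10 acts later, when the helicase starts to move. Dividing cells make MCM proteins in excess over the forks they use, E2F factors are known to drive several MCM genes, and MCM proteins are widely used as a sign of proliferating cells that is lost as neurons leave the cell cycle.

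Because E2F factors are the known regulators of these genes, promoter windows of 300 bases (250 before to 50 after the annotated start, RefSeq, GRCm38.p6) were searched on both strands for the words TTTCCCGC, TTTCGCGC, TTTGCCGC and TTTGGCGC, which may overlap one another. At least 1 word was present in 744 of 32851 windows, or 2.26%, and in a window of 704 of 27025 genes. Of the 6 members with an entry (Mcm2, Mcm3, Mcm5, Mcm6, Mcm7 and Mcm10), 4 had a window with a match. Mcm3 had 2 matches, Mcm5 2, Mcm6 3 and Mcm7 2 in one of its 2 windows, with 0 in the other. In the windows of Mcm2 and Mcm10 0 matches were found, which says only that these letters are not in these windows. The first match of each of the 4 genes is shown with its flanks, 5′ to 3′ on the gene's strand, with matched letters in capitals; the Mcm5 and Mcm6 runs each hold 2 overlapping words.

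Mcm3: aaacttccgtgGCGGGAAAacttgggaagt
Mcm5: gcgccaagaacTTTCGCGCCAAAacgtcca
Mcm6: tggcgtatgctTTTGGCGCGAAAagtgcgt
Mcm7: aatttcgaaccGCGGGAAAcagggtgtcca

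The stretches lie at chr1:20820275-20820304 (minus strand), chr8:75109345-75109374 (plus strand), chr1:128359797-128359826 (minus strand) and chr5:138172030-138172059 (minus strand) in GRCm38.p6, a newer build than the mm9 of the counts. Their first matched base stood at +20 of the annotated start for Mcm3, -153 for Mcm5, -110 for Mcm6 and -165 for Mcm7. The letters CCAAT, the core of the NF-Y site, were present at least once in each of the 7 windows of the 6 members, against 37.4% of all windows. A match is a description of the letters and not evidence of a bound site.

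Depth ran from 5578151 to 78814037 counts per library, and 6 libraries (replicate 3 of the ESC groups and replicate 5 of the NPC groups) had fewer counts than the rest, 5578151 to 24053970, and are called shallow. One entry, GU332589 in 27 libraries and Lars2 in the other, took 19.6% to 38.8% of a library's counts. Stage markers followed the labels in control cells. The 7 naive pluripotency genes summed to 977 to 1300 CPM (counts scaled to library size) in control ESCs and 3.11 to 5.33 in control neurons, where Zfp42 had 0 counts. The 8 pan-neuronal genes summed to 500 to 1082 CPM in control NPCs and 2012 to 3579 in control neurons. Within each genotype neurons stayed above NPCs in this sum. Across genotypes the highest deletion NPC library (1899 CPM) lay above the lowest duplication-deletion neuron library (1727). Control neurons also held markers of other cells. The neural progenitor genes summed to 840 to 1139 CPM (1898 to 2407 in control NPCs), 6 astrocyte genes to 471 to 609, and 6 neural crest and mesenchyme genes to 434 to 1325. In bulk RNA, fewer cells that express a gene and less RNA of it per cell cannot be told apart.

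The first question is how MCM expression changed along control differentiation. All 7 genes were highest in ESCs, somewhat lower in NPCs and 10.0- to 34.8-fold lower again in neurons. The summed level of Mcm2 to Mcm7 was 1763 ± 195 CPM in control ESCs (SD, n = 3), 1084 ± 158 in NPCs (SD, n = 5) and 63.5 ± 12.0 in neurons (SD, n = 4). Relative to control ESCs this left 61.5% in NPCs and 3.60% in neurons. Over the 9 groups, each gene had its 3 ESC means above its 3 NPC means and these above its 3 neuron means. Adjacent groups in that order overlapped in their libraries, except between the lowest NPC group and the highest neuron group for all 7 genes, between the lowest ESC group and the highest NPC group for Mcm10, and between the 2 highest neuron groups for Mcm2 and Mcm3.

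**Figure D1:**
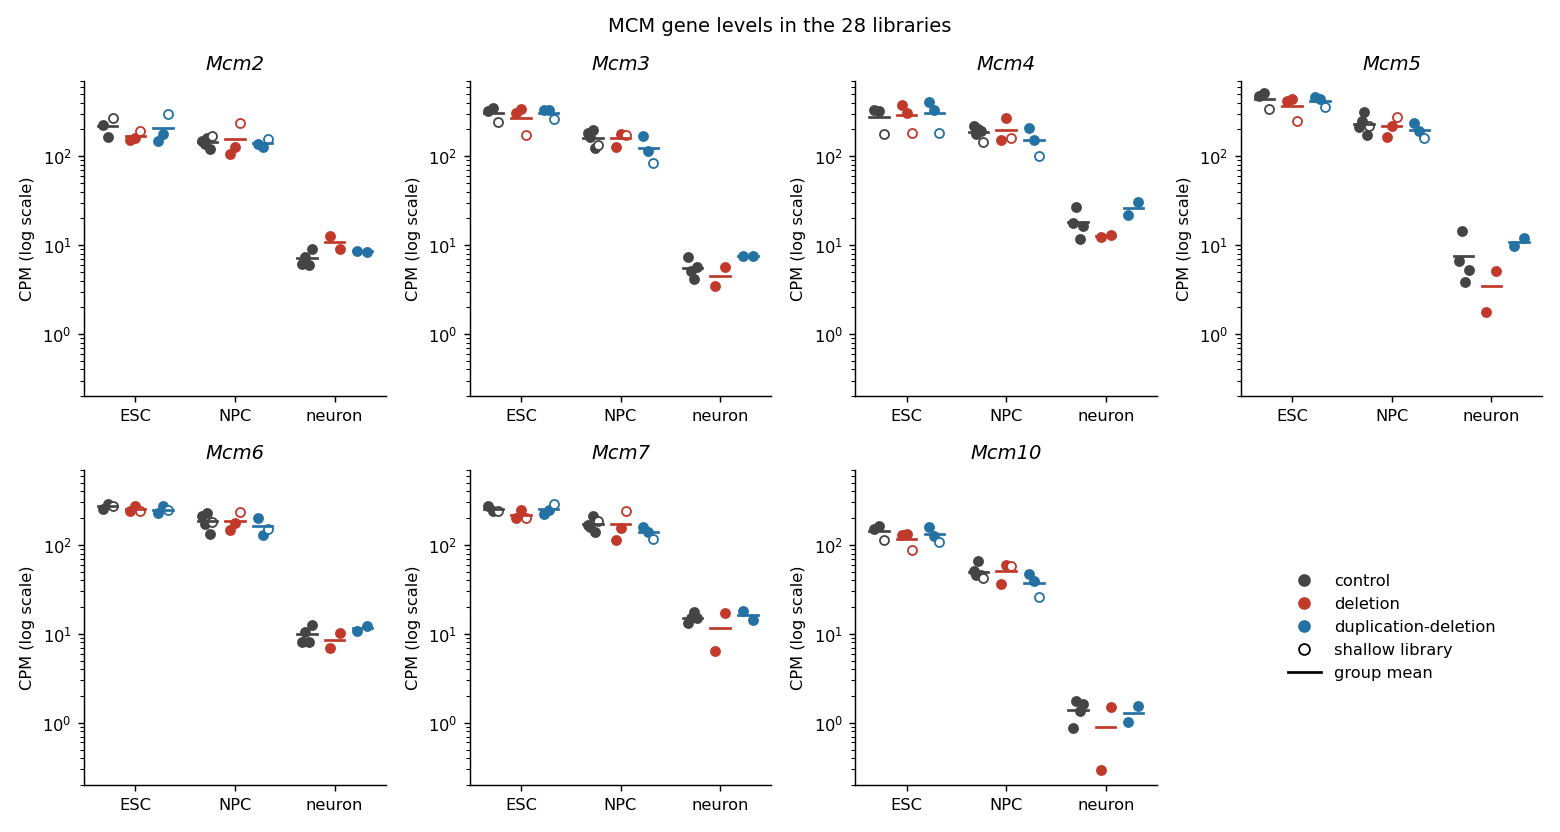
Level of each MCM gene in every library (CPM, log scale) by stage and genotype; filled circles are libraries, open circles shallow libraries and bars group means. Neuron libraries of all 3 genotypes lie below every ESC and NPC library for all 7 genes. Genotypes overlap for all 7 genes within ESCs and within NPCs. In neurons the 2 mutant groups do not overlap for Mcm2, Mcm3, Mcm4, Mcm5 and Mcm6. Control neurons do not overlap deletion neurons for Mcm2 or duplication-deletion neurons for Mcm3.

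Mcm2, a subunit that also binds histones, had 225, 164 and 268 CPM in the 3 control ESC libraries, 148, 137, 158, 120 and 167 in the 5 NPC libraries, and 6.19, 7.44, 5.97 and 9.04 in the 4 neuron libraries. One NPC library thus reached above the lowest ESC library, and no neuron library came near either stage. Mcm3 had 318, 347 and 242 CPM in control ESCs, 184, 163, 198, 124 and 133 in NPCs, and 7.35, 5.15, 4.17 and 5.62 in neurons. Its 3 stages did not overlap. For Mcm5, a subunit at the gate through which DNA enters the ring together with Mcm2, the ESC libraries had 476, 510 and 340 CPM, the NPC libraries 213, 249, 316, 172 and 216, and the neuron libraries 6.64, 14.3, 3.84 and 5.24. Again no stage overlapped another, although the highest neuron library had several times the level of the lowest.

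Mcm4, Mcm6 and Mcm7 make up the core of the ring that retains helicase activity on its own. Control ESCs had 329, 323 and 176 CPM of Mcm4, NPCs 218, 178, 200, 191 and 143, and neurons 17.8, 27.1, 11.6 and 16.2. The shallow ESC library lay within the NPC range, so these 2 stages overlapped. Mcm6 ran from 254 to 290 CPM in control ESCs, from 133 to 229 in NPCs and from 8.13 to 12.6 in neurons. Mcm7 ran from 241 to 274, from 140 to 209 and from 13.1 to 17.4 CPM. Neither gene overlapped between stages.

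Mcm10, which helps the loaded helicase start and stabilises polymerase alpha, had 152, 163 and 114 CPM in control ESCs, 50.7, 45.7, 65.9, 45.7 and 42.7 in NPCs, and 0.881, 1.77, 1.36 and 1.61 in neurons. It was the gene with the clearest step at both transitions. Even the low neuron values rested on expected counts well above 0: in the 8 neuron libraries of all genotypes Mcm10 had 14 to 121 counts, and Mcm4 had 593 to 1829.

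From control NPCs to neurons, 7 of 7 members fell past the threshold (edgeR quasi-likelihood test, Benjamini-Hochberg adjusted p under 0.05 over 18365 genes), against 20.5% of all genes tested that were lower. The libraries of the 2 stages did not overlap for any of the 7, against 18.3% of genes lower without overlap. Log2 fold changes were -4.32 ± 0.23 for Mcm2 (± SE), -4.82 ± 0.26 for Mcm3, -3.32 ± 0.29 for Mcm4, -4.92 ± 0.40 for Mcm5, -4.20 ± 0.24 for Mcm6, -3.48 ± 0.19 for Mcm7 and -5.12 ± 0.27 for Mcm10. The edgeR adjusted p-values ran from 2.68e-08 to 1.42e-06. As folds of the fitted values these were 10.0 for Mcm4, 11.1 for Mcm7, 18.4 for Mcm6, 20.0 for Mcm2, 28.2 for Mcm3, 30.4 for Mcm5 and 34.8 for Mcm10. The median over the 6 subunits was -4.26, beside 0.10 over all genes tested.

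From control ESCs to NPCs, 6 of 7 members fell, against 20.5% of all genes that were lower. Mcm10 fell most, by 1.52 ± 0.23 on the log2 scale (2.87-fold, edgeR adjusted p = 0.000141), and Mcm3 by 0.93 ± 0.23 (adjusted p = 0.00478). The other 4 that passed had log2 fold changes of -0.94 ± 0.35 (Mcm5), -0.60 ± 0.21 (Mcm2), -0.57 ± 0.21 (Mcm6) and -0.56 ± 0.18 (Mcm7), with edgeR adjusted p-values from 0.0246 to 0.0471. Mcm4 had -0.58 ± 0.28 and did not pass (adjusted p = 0.107). Libraries did not overlap for 5 members (Mcm3, Mcm5, Mcm6, Mcm7 and Mcm10), against 21.2% of genes lower without overlap. Mcm3 and Mcm10 passed in all 16 alternative fits. The count was 2 with total counts less the largest entry as the scale, with a replicate block, without the shallow libraries, and without control ESC replicate 1 or control NPC replicate 1, 2 or 4.

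The same transitions were measured in the mutant cells. From NPC to neuron, 7 of 7 members fell in deletion cells, against 9.39% of all genes that were lower, and 7 of 7 in duplication-deletion cells, against 6.95%. Deletion cells had log2 fold changes from -3.85 ± 0.46 (Mcm2) to -5.99 ± 0.63 (Mcm5), and duplication-deletion cells from -2.54 ± 0.47 (Mcm4) to -4.86 ± 0.44 (Mcm10). Libraries overlapped for 0 members in either genotype, against 23.6% and 25.3% of genes lower without overlap. Mcm4 had the smallest fall of the 7 in controls and in duplication-deletion cells. With 1 of the 2 duplication-deletion neuron libraries left out, the other being taken to vary like the remaining groups, it no longer passed, with an edgeR adjusted p of up to 0.0926. In deletion cells Mcm2 (-3.85), Mcm7 (-3.86 ± 0.54) and Mcm4 (-3.93 ± 0.48) lay within one SE of each other.

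From ESC to NPC, 0 members passed in deletion cells by edgeR, against 13.2% of all genes that were lower. All 7 estimates were negative, 2 had an unadjusted p under 0.05 (Mcm10, -1.18 ± 0.47, edgeR adjusted p = 0.0836, and Mcm3, -0.78 ± 0.34, adjusted p = 0.114), and DESeq2 called 2, limma-voom 1 and the joint fit of all libraries 2. Without deletion ESC replicate 3, the library with 5578151 counts, edgeR called 1. In duplication-deletion cells 4 members fell, against 14.2% of all genes: Mcm10 (-1.78 ± 0.32), Mcm3 (-1.30 ± 0.31), Mcm5 (-1.05 ± 0.27) and Mcm7 (-0.83 ± 0.25), with edgeR adjusted p-values from 0.00316 to 0.0340. Libraries did not overlap for Mcm6 and Mcm10 in deletion cells, against 20.9% of genes lower without overlap, and for 5 members (Mcm3, Mcm5, Mcm6, Mcm7 and Mcm10) in duplication-deletion cells, against 22.0%. The count of 4 in duplication-deletion cells was 1 with a replicate block and 2 without NPC replicate 4. Of these 4, Mcm10 passed in all 14 alternative fits, Mcm3 in 13, Mcm5 in 12 and Mcm7 in 6. Without the shallow libraries Mcm7 did not pass (edgeR adjusted p = 0.114), while Mcm4 did (adjusted p = 0.0408). Mcm10 had the largest estimate of the 7 in each genotype.

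**Figure D2:**
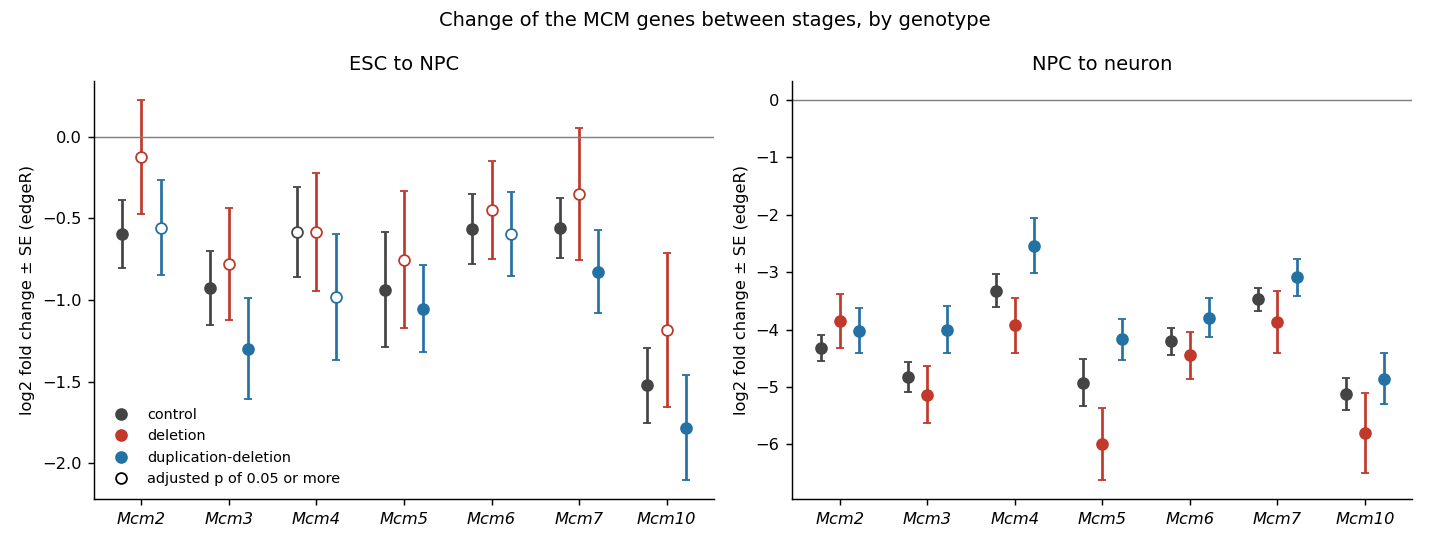
Log2 fold change (± SE, edgeR) of each MCM gene from ESC to NPC (left) and from NPC to neuron (right) in control, deletion and duplication-deletion cells; filled circles passed the threshold. On the right all 21 values lie between -2.54 and -5.99 and passed, while on the left none lies below -1.78.

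The members did not fall by equal amounts. To measure this, each gene's CPM + 0.5 was divided, library by library, by the geometric mean of the other Mcm2 to Mcm7 genes, and the log2 ratio was compared between control stages by an exact permutation test (two-sided, Benjamini-Hochberg over 14 tests). In this balance only changes of one gene's ratio are read, not levels of one gene against another.

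Mcm4 had log2 ratios of 0.25, 0.05, -0.12, 0.48 and -0.29 in the 5 control NPC libraries and 1.11, 1.43, 0.73 and 0.85 in the 4 control neuron libraries, which did not overlap. Mcm7 had -0.18, -0.16, -0.04, -0.05 and 0.18 in NPCs and 0.60, 0.44, 1.42 and 0.74 in neurons, again without overlap. Each retained a larger part of its NPC level than the other subunits, by 0.95 (Mcm4) and 0.85 (Mcm7) on the log2 scale. Mcm10 shifted the other way, by -0.58, from -1.88, -1.91, -1.69, -1.65 and -1.98 in NPCs to -2.81, -2.42, -2.09 and -2.28 in neurons. All 3 shifts had exact permutation p = 0.00794, the smallest value that 126 arrangements allow here, and adjusted p = 0.0370. The added 0.5 CPM shrinks the shift of a gene as low as Mcm10 was in neurons: it was -0.86 with 0.1 CPM added and -0.94 with none added, the latter tried after seeing the data. Mcm4 (0.99 with 0.1 added) and Mcm7 (0.88) changed little, and the same 3 genes passed with the same adjusted p.

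Mcm3 (-0.68) and Mcm5 (-1.0) had lower ratios in neurons, with exact permutation adjusted p = 0.05 and 0.0556, neither of them under the threshold. Mcm5 lay below its NPC range in 3 of 4 neuron libraries, with ratios of -0.52, -1.04 and -1.0, while control neuron replicate 2 stood at 0.35, within the NPC range of 0.21 to 0.68. For Mcm2 (-0.12, exact permutation adjusted p = 0.556) and Mcm6 (0.00, adjusted p = 0.992) no shift passed the test. From ESC to NPC no member passed: Mcm10 had the largest shift (-0.82, from -1.0 ± 0.14 (SD, n = 3) to -1.82 ± 0.14 (SD, n = 5), exact permutation p = 0.0179, adjusted p = 0.05), and the other 6 lay between -0.30 and 0.18. With the ratio taken to the summed CPM of Mcm2 to Mcm7 in place of the geometric mean, 5 members passed from NPC to neuron and 1 from ESC to NPC. With any 1 library left out, or without the shallow libraries, 0 passed from NPC to neuron, since fewer arrangements remain. Without the shallow libraries the shifts were 0.86 (Mcm4), 0.91 (Mcm7) and -0.62 (Mcm10), and with 1 library left out they ran from 0.82 to 1.06 for Mcm4, from 0.64 to 0.97 for Mcm7 and from -0.68 to -0.44 for Mcm10.

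**Figure D3:**
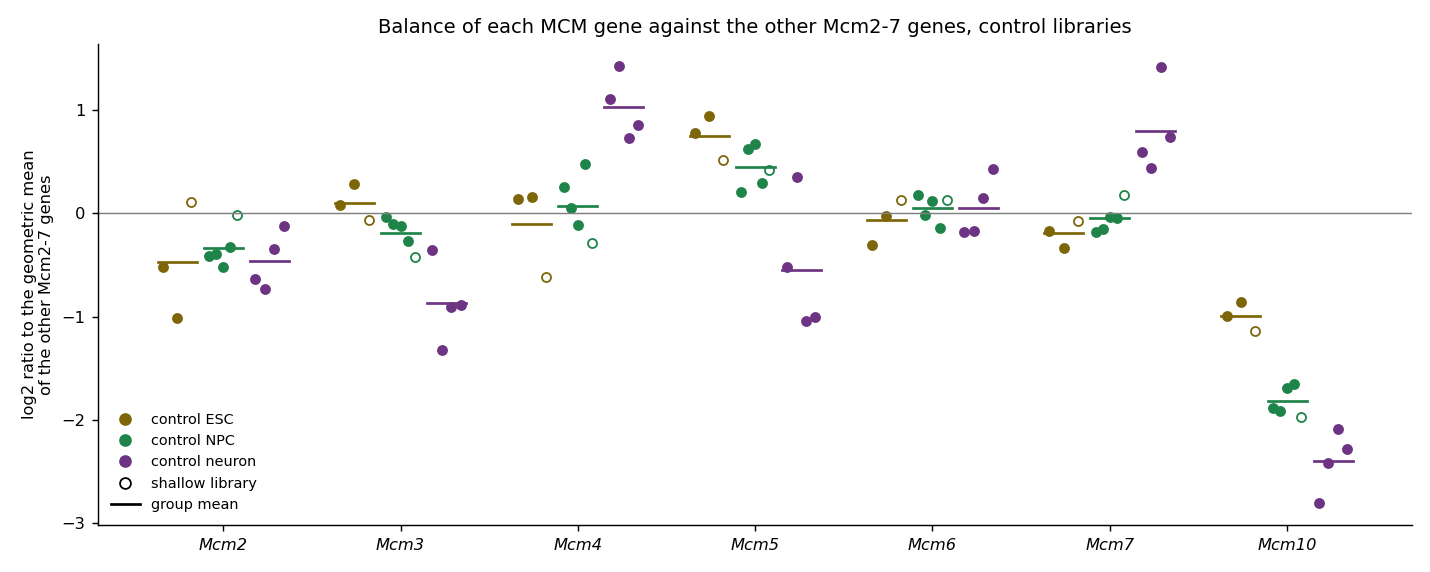
Log2 ratio of each MCM gene to the geometric mean of the other Mcm2 to Mcm7 genes in the control libraries; circles are libraries (open where shallow) and bars group means. Neuron libraries lie above all NPC libraries for Mcm4 and Mcm7 and below all of them for Mcm10.

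The mutant neurons, which were not part of that test, gave Mcm4 ratios of 1.19 and 0.59 (deletion) and 1.03 and 1.48 (duplication-deletion), and Mcm7 ratios of 0.11, 1.02, 0.69 and 0.21. Mcm10 ratios were -3.04, -2.27, -3.02 and -2.70. For Mcm10 all 4 lay below the 6 mutant NPC libraries, whose ratios ran from -2.25 to -1.62. Of the other ratios, Mcm7 in deletion neuron replicate 1 (0.11) and Mcm4 in deletion neuron replicate 3 (0.59) fell inside the mutant NPC ranges, which reached 0.20 for Mcm7 and 0.68 for Mcm4.

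The shallow libraries stood apart in the same measure. Mcm4 divided by Mcm2, in CPM, was 0.615 to 0.933 in the 6 shallow libraries and 1.21 to 2.74 in the other 14 ESC and NPC libraries, with no overlap, in all 3 genotypes. Mcm2 had log2 ratios of -0.10 to 0.19 in the shallow ESC libraries against -1.08 to -0.52 in the other ESC libraries, and -0.02 to 0.39 against -0.62 to -0.18 in NPCs. Mcm3 and Mcm4 were on the low side in the same libraries, and in ESCs so was Mcm5. Mcm10 ratios were on the low side at both stages, with ranges that overlapped. Mcm7 ratios were on the high side, at -0.07 to 0.11 against -0.49 to -0.17 in ESCs. In NPCs they overlapped (-0.12 to 0.20 against -0.29 to -0.01). Mcm4 had 176 to 184 CPM in the shallow ESC libraries and 310 to 410 in the others. Mcm5 had 247 to 360 against 422 to 510 CPM there, and Mcm10 88.1 to 114 against 126 to 163. In NPCs the CPM ranges of shallow and other libraries overlapped for each of these genes. The labels give no preparation or sequencing date, and the part of this in the ESC to NPC results was not tested beyond leaving these libraries out. Without them, log2 fold changes from control ESC to NPC were -0.47 ± 0.25 for Mcm2 (edgeR adjusted p = 0.163), -0.73 ± 0.28 for Mcm4 (adjusted p = 0.0633) and -1.59 ± 0.27 for Mcm10 (adjusted p = 0.000917), and from NPC to neuron all 7 still passed in each genotype.

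Across the 28 libraries, deviations of a gene from its group mean were compared with the mean deviation of the other Mcm2 to Mcm7 genes, on log2 CPM. Pearson's r was 0.76 for Mcm10, 0.75 for Mcm5, 0.70 for Mcm3, 0.70 for Mcm6, 0.53 for Mcm7, 0.36 for Mcm4 and -0.07 for Mcm2. These values share library, depth and scaling and are given as a description. Over the 9 group means all 7 had r between 0.986 and 0.999.

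The other genes of the replication pathway were taken from 11 lists of 108 genes. Upstream of the helicase, 5 of 6 origin recognition genes fell from control NPC to neuron, with a list median of -1.25 beside 0.10 for all genes. Beside this count and those of the lists that follow for this step, 20.5% of all genes tested were lower and 23.2% higher. Orc1, the subunit whose abundance varies with the cell cycle, had -4.59 ± 0.66 and Orc2 -2.49 ± 0.25. Of 7 genes in the list for loading of the ring and its control, which also holds Dbf4 and Cdc7 of the activating kinase, 5 fell (median -3.25). Cdc6, the ATPase that brings the ring to origins, fell from 43.7 ± 10.2 CPM in NPCs (SD, n = 5) to 1.26 ± 0.26 in neurons (SD, n = 4), a log2 fold change of -5.08 ± 0.27. Gmnn had -4.12 ± 0.25, Dbf4 -3.82 ± 0.23 and Cdt1 -3.25 ± 0.49.

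Downstream, 12 of 13 genes of helicase activation and fork protection fell (median -2.90). Cdc45, which joins the ring in the active helicase, had -4.73 ± 0.32, Gins1 -3.65 ± 0.26 and Clspn, the checkpoint mediator claspin, -5.07 ± 0.27. Among polymerase and primase genes 10 of 12 fell (median -2.02), with Pole, the leading-strand polymerase, at -4.80 ± 0.25. Clamp, clamp loader and Okazaki processing genes fell in 13 of 14 cases (median -2.51), deoxynucleotide synthesis genes in 7 of 7 (median -3.46) and mitosis genes in 14 of 14 (median -4.10). The MCM subunit median of -4.26 lay nearest to that of the mitosis genes.

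**Figure D4:**
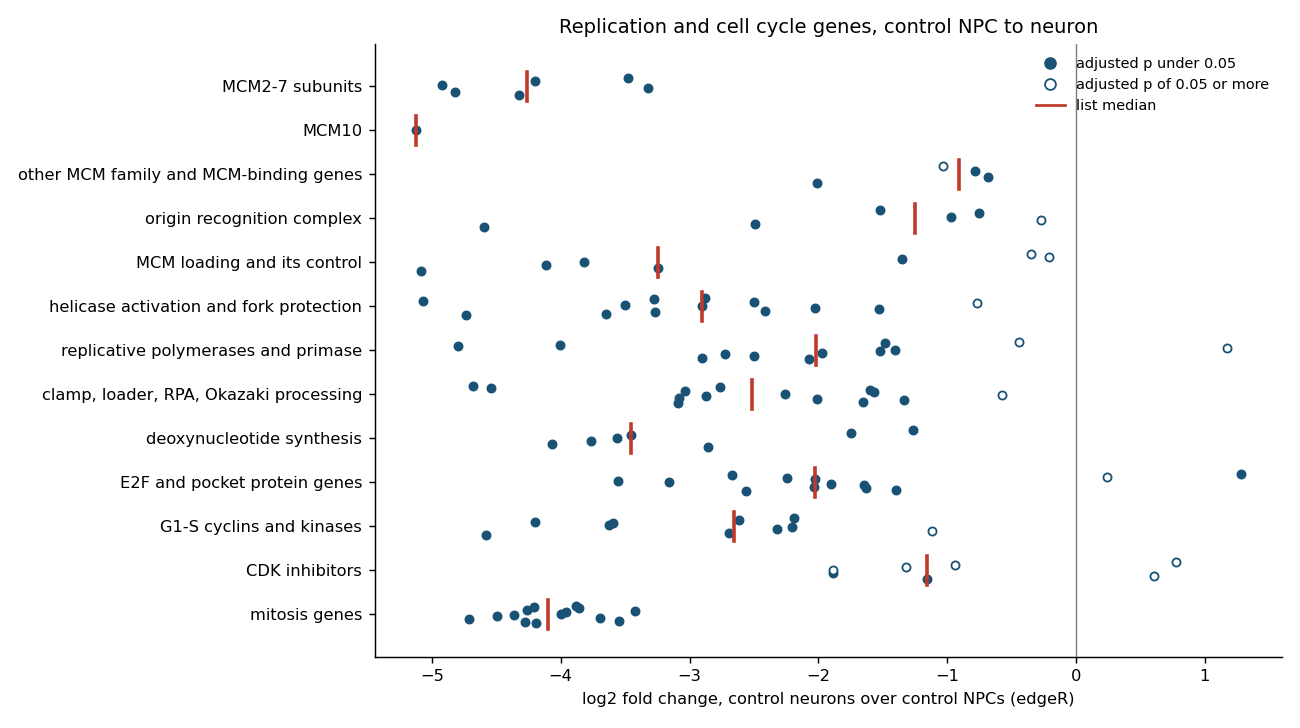
Log2 fold change (edgeR) of each gene of the MCM and pathway lists in control neurons over control NPCs; circles are genes, filled where the adjusted p was under 0.05, and bars list medians. Medians of the MCM2-7 subunits (-4.26) and of the mitosis genes (-4.10) lie lower than the median of the CDK inhibitors (-1.15).

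MCM relatives outside the replicative ring also fell. Mcm8, a helicase of homologous recombination, had -2.01 ± 0.27, Mcmbp, which binds and unloads MCM proteins, -0.78 ± 0.25, and Mcm9, the partner of Mcm8, -0.68 ± 0.25; these 3 of 4 passed, with a list median of -0.91. Whether they differ from the ring genes was not tested.

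Among regulators of the G1 to S step, 11 of 13 E2F and pocket protein genes fell from NPC to neuron and 1 rose. Rbl1, the pocket protein p107, had -2.67 ± 0.23, and E2f7, a repressor E2F, -3.16 ± 0.33. The gene that rose, named after its values were seen, was Rbl2, the pocket protein p130, with 12.4 ± 4.03 CPM in NPCs (SD, n = 5) and 29.6 ± 7.39 in neurons (SD, n = 4), a log2 fold change of 1.28 ± 0.25 (edgeR adjusted p = 0.00109). G1-S cyclin and kinase genes fell in 9 of 10 cases, Ccnd1 by 4.58 ± 0.34. Of 7 CDK inhibitor genes 2 fell (Cdkn1c, -1.89 ± 0.41, and Cdkn1a, -1.15 ± 0.37) and 0 rose, a share near the 20.5% of all genes lower and beside 23.2% higher.

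From control ESC to NPC the lists of the pathway held genes that fell and genes that rose, beside 20.5% of all genes lower and 21.0% higher. Several list counts lie near those shares, and no difference between a list and all genes was tested. Genes of the loading and control list fell in 5 of 7 cases (Gmnn, -1.05 ± 0.22, Dbf4, -0.99 ± 0.21). Origin recognition genes fell in 3 of 6 (Orc1, -2.60 ± 0.57), activation genes in 6 of 13, polymerase genes in 4 of 12 (Pold2, -1.46 ± 0.26) and mitosis genes in 7 of 14. Deoxynucleotide synthesis genes rose in 3 cases and fell in 1 of 7, and E2F and pocket protein genes rose in 4 and fell in 1 of 13. Ccnd2 and Ccnd1, the D-type cyclins that link growth signals to the cell cycle, rose by 4.78 ± 0.54 and 2.05 ± 0.34, while Ccne1, cyclin E1, fell by 2.13 ± 0.27. CDK inhibitors rose in 4 of 7 cases, Cdkn1c by 3.31 ± 0.50. Medians were -0.59 for the MCM subunits, -0.77 for the loading and control list and 0.08 for the deoxynucleotide synthesis genes, beside 0.01 over all genes.

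Genes whose level followed Mcm2 to Mcm7 most closely were sought among 11178 genes with a mean of at least 5 CPM. Over the 9 group means the 8 highest Pearson correlations with the mean log2 CPM of Mcm2 to Mcm7 were those of Ercc6l (r = 0.999), Ccdc99, Prps1l3, Traip, Trip13, Rfwd3, Kif2c and Pola2 (0.999), and the median of all genes was 0.12. Over the 28 deviations from group means, where stage no longer enters, they were 2610528E23Rik (0.92), Umps, Hist1h1a, Traip, Ftsj3, Chaf1b, Gmnn and Chd1l (0.80), with a median of 0.00 over all genes. Traip, a ubiquitin ligase of the replication fork, was in both lists. With total counts less the largest entry as the scale, 5 of the first 8 and 4 of the second 8 were named again.

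Mcm7 shares its upstream region with Ap4m1, which starts 138 bases away on the opposite strand in the annotation. Ap4m1 had 6.41, 7.85 and 8.99 CPM on average in control ESCs, NPCs and neurons and passed at neither step (log2 fold changes 0.28 ± 0.37 and 0.22 ± 0.33, edgeR adjusted p = 0.572 and 0.618). The microRNA genes Mir25, Mir93 and Mir106b, known to lie in an Mcm7 intron, had at most 2 counts in any library. These are gene-level counts of RNA-seq with 75-base reads, and levels of the mature microRNAs were not measured.

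The next question is whether MCM expression differed between the 7qF3 genotypes at a given stage. Duplication-deletion cells carry a gain and a loss of the region together, so their comparison with control is not one of loss or gain alone. In each of the 9 comparisons of 2 genotypes within a stage 0 of 7 members passed by edgeR, and 0 passed in any of 125 alternative fits, DESeq2 and limma-voom included. Few genes passed at all: 0.0% of genes in the 3 ESC comparisons and in deletion neurons against control, 0.00596% (deletion), 0.0119% (duplication-deletion) and 0.0238% (between the mutants) in NPCs, and 0.039% (duplication-deletion) and 0.0335% (between the mutants) in neurons. In deletion cells against control, 0 of 16454 genes passed in ESCs and 0 of 17931 in neurons. Genes of the deleted 7qF3 region therefore did not pass there either. A count of 0 members in these comparisons does not show that MCM expression was unchanged. The 3 comparisons of a stage share libraries. An unadjusted p under 0.05 was reached by 2 members in 1 comparison, deletion against duplication-deletion neurons, by edgeR, DESeq2 and limma-voom, and by 0 in the other 8 by edgeR. With a replicate block, 0 members reached it in that comparison and 1 in deletion neurons against control. The authors' deposited table, made with other software and filters, lists more genes past an adjusted p of 0.05 against control (3 and 5 in ESCs, 122 and 54 in NPCs, 44 and 183 in neurons, for deletion and duplication-deletion), and 0 of them are members.

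In ESCs, log2 fold changes over control ran from -0.30 ± 0.29 (Mcm2) to 0.12 ± 0.41 (Mcm4) in deletion cells and from -0.11 ± 0.22 (Mcm6) to 0.18 ± 0.41 (Mcm4) in duplication-deletion cells. Same-numbered ESC libraries deviated together, and a fit with the replicate number as a block also called 0 members. Deletion NPCs ran from -0.08 ± 0.24 (Mcm5) to 0.10 ± 0.24 (Mcm2). With the shallow libraries left out they ran from -0.33 ± 0.23 (Mcm7) to 0.12 ± 0.25 (Mcm4), and all but Mcm4 were negative. Duplication-deletion NPCs had 7 negative values, from -0.07 ± 0.24 (Mcm2) to -0.42 ± 0.25 (Mcm10, edgeR adjusted p = 1.00), and their libraries overlapped control libraries for all 7. Between the mutants, deletion minus duplication-deletion ran from -0.25 ± 0.29 (Mcm2) to 0.06 ± 0.22 (Mcm6) in ESCs and from 0.16 ± 0.27 (Mcm5) to 0.46 ± 0.28 (Mcm10) in NPCs. Without the shallow libraries the NPC differences between the mutants ran from -0.19 (Mcm2) to 0.23 (Mcm4) and 4 of 7 were negative. Without deletion NPC replicate 5 alone Mcm2 had -0.27 in that comparison. Of the 3 duplication-deletion NPC libraries, the shallow one was the lowest for Mcm3 (83.7 CPM), Mcm4 (99.2), Mcm5 (162), Mcm7 (116) and Mcm10 (25.8). The same group stood out in the sum of 6 microglia and blood markers (Ptprc, Cx3cr1, Csf1r, Aif1, Hbb-y and Hba-x). They summed to 23.8 to 71.5 CPM, against 1.51 to 9.40 in control and 0.28 to 2.95 in deletion NPCs. Only 2 of the 6 had a mean of at least 1 CPM in duplication-deletion NPCs. The part of these markers in the MCM values was not tested.

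Neurons gave the widest estimates, with 4, 2 and 2 libraries and SEs of 0.32 to 0.83. Mcm2 had 12.5 and 9.08 CPM in deletion neurons, 8.61 and 8.36 in duplication-deletion neurons and 5.97 to 9.04 in controls. Both deletion libraries thus lay above all control libraries, as did 4.4% of all genes, with a log2 fold change of 0.61 ± 0.32 (edgeR adjusted p = 1.00). Mcm5 had 1.77 and 5.11 CPM in deletion neurons and 9.68 and 12.0 in duplication-deletion neurons, beside 3.84 to 14.3 in controls. Its log2 fold changes over control were -1.12 ± 0.63 and 0.51 ± 0.59, and neither passed. Mcm3 had 7.63 and 7.51 CPM in duplication-deletion neurons, above all 4 control libraries, as did 10.5% of all genes.

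Between the mutant neuron groups, Mcm3, Mcm4, Mcm5 and Mcm6 were lower in both deletion libraries than in both duplication-deletion libraries, as were 21.5% of all genes, and Mcm2 was higher, as were 18.3%. Mcm4 had 12.5 and 13.1 CPM against 21.8 and 30.4, a log2 difference of -1.0 ± 0.42, deletion minus duplication-deletion (edgeR adjusted p = 0.546). Mcm5 differed by -1.63 ± 0.71 (edgeR adjusted p = 0.559), a value that moved to -1.05 without deletion replicate 1 and to -2.59 without deletion replicate 3. Deletion neuron replicate 1 had the lowest Mcm3, Mcm5, Mcm6, Mcm7 and Mcm10 of the 8 neuron libraries and the highest Mcm2. Its Mcm10 level of 0.294 CPM was 14 counts, and without it the log2 fold change of Mcm10 in deletion neurons over control moved from -0.62 ± 0.73 to 0.13, while without replicate 3 it was -2.24. Other lists moved between these libraries too: summed dopaminergic markers were 149 and 164 CPM in deletion neurons, 931 and 357 in duplication-deletion neurons and 237 to 474 in controls, and summed mitosis genes 201 and 239, 189 and 274, and 138 to 241. The part of these in the MCM values was not tested.

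**Figure D5:**
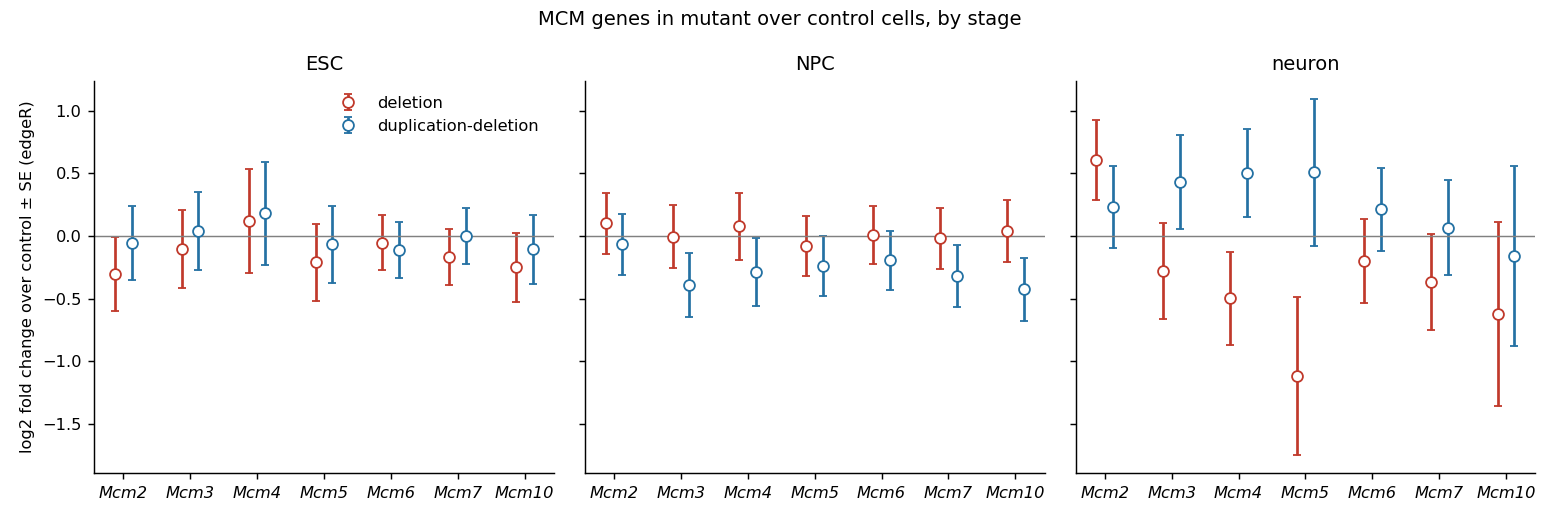
Log2 fold change (± SE, edgeR) of each MCM gene in deletion and duplication-deletion cells over control at each stage; open circles mark values that did not pass the threshold, here all 42. Estimates in ESCs and NPCs lie between -0.42 and 0.18, and those in neurons between -1.12 and 0.61 with wider errors.

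Whether a transition itself differed between mutant and control cells was tested in the joint fit of 28 libraries. In the 4 such contrasts 0 members passed by edgeR, against 0.0% to 0.005% of all genes, and 0 in any of 84 alternative fits. For the fall from NPC to neuron, duplication-deletion cells minus control gave 7 positive differences, from 0.28 ± 0.52 (Mcm10) to 0.83 ± 0.40 (Mcm3, edgeR adjusted p = 0.962). Mcm3 was the only one of the 28 values with an unadjusted p under 0.05. The deletion gave differences from -1.03 ± 0.55 (Mcm5) to 0.50 ± 0.39 (Mcm2). For the ESC to NPC step, differences ran from -0.01 ± 0.47 (Mcm4) to 0.47 ± 0.38 (Mcm2) in deletion cells and from -0.45 ± 0.47 (Mcm4) to 0.00 ± 0.38 (Mcm2) in duplication-deletion cells. The authors' deposited table likewise held no adjusted p below 0.683 for a member in its 6 comparisons of mutant with control.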

How the data were processed

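The authors deposited 1 table of expected counts per gene; the submitters' processing notes name RSEM 1.3.0, STAR 2.6.0c and the mm9 build; whether strand was used in counting is not given in the sources used here. The authors' deposited table also holds log2 fold changes and p-values of 6 mutant-control comparisons, made with DESeq2 1.22.2 per the same notes. For the fits, these values were rounded to whole numbers after 92 spike-in entries had been removed. Of 33 replicate pairs 0 were identical. The NPC duplication-deletion group follows its title and genotype labels, since its description label names the deletion only. The 6 Hi-C samples are not analysed here.

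Fits used edgeR 4.0.16 in R 4.3.3 (robust quasi-likelihood, TMM, filterByExpr by group), with the genotypes of a stage, the stages of a genotype or all 28 libraries in one fit, two-sided tests and Benjamini-Hochberg adjustment over all genes of a comparison at a threshold of 0.05. CPM values are TMM-scaled over all 28 libraries; CPM is not per length, so levels are not compared between genes. Exact permutation tests went through every arrangement of the libraries, and their p-values were adjusted with scipy 1.17.1. DESeq2 1.42.0, limma-voom (limma 3.58.1), other scales, no filter, a replicate block and leaving out libraries served as alternatives. An edgeR SE here is the size of the log2 fold change divided by the square root of the quasi-likelihood F statistic. The fitting script was checked on simulated data.

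The rule for the members uses only their symbols, but this gene family, the lists and the tests were chosen with earlier results of these data known. All 7 members are named in every comparison. Of each pathway list up to 4 genes with the smallest p among those past the threshold could be named, or up to 2 where none passed, with the likeness genes as stated. Pathway symbols were matched to the table's entries by current name or synonym, and Ticrr and Tfcp2l1 had no entry. Whether same-numbered libraries deviate together was checked by correlating their deviations from group means over genes. In ESCs all 9 pairs were over 0.1 (0.18 to 0.59). In NPCs 5 of 7 pairs were over 0.1 and in neurons 3 of 4. Across stages 2 of 10 (control), 3 of 6 (deletion) and 2 of 4 (duplication-deletion) were over it. The main fits had no replicate block at any stage, ESCs included, so their estimates and SEs do not use this pairing. A fit with the replicate number as a block served only as an alternative.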

Additional observations from a re-analysis of the deposited data

How the results depend on the processing

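The NPC to neuron fall of all 7 members passed in every alternative fit in control and deletion cells. In duplication-deletion cells Mcm4 dropped out without neuron replicate 2 or 4, which left 6 members. The ESC to NPC counts were less stable. In controls, where 6 members were lower, the count was 2 with total counts less the largest entry, with the replicate block and without the shallow libraries, and 2 to 6 with 1 library left out. In deletion cells, where 0 were lower, it was 2 with DESeq2, 1 with limma-voom, 2 in the joint fit, and 0 to 1 with 1 library left out. In duplication-deletion cells, where 4 were lower, it was 1 with the replicate block and 2 to 5 with 1 library left out. The cause was not tested. Members with a changed balance numbered 1 (ESC to NPC) and 5 (NPC to neuron) with the ratio to the summed CPM, against 0 and 3. From NPC to neuron it was 0 without the shallow libraries (chosen after seeing the data) and 0 to 0 with 1 library left out; fewer arrangements limit the p in both (smallest p 0.0286 with 4 against 4), and the shifts kept their direction. The replicate block changed no genotype call. Of 2866 alternative values 0 reversed among those past the threshold in either fit. Of 1605 log2 fold changes that passed in neither, 126 changed sign, all with a reported size of at most 0.65 on the log2 scale. Depth limits Mcm10 in neurons most, with 14 to 121 counts per library, and 2 libraries per mutant neuron group limit what a genotype test can detect.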
